A study of Mus musculus with 91 samples.

Results

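The extraembryonic ectoderm (Exe) of control embryos was compared between embryonic days 6.5 and 7.5 (E6.5 and E7.5) by small RNA sequencing. The comparison used the 8 control Exe libraries, 4 of each stage, among the 88 libraries of the main count table and 91 samples of the series. All 8 libraries were chosen from their labels alone, without reference to any measured value. Read counts were given for 1504 mature miRNA entries, and levels are given as normalised CPM, that is, counts scaled to libraries of equal effective size.

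Both stages came from the same cross, labelled C57BL/6 male X F1 female. According to the methods, F1 females of C57BL/6J and DBA2 were mated with Oct4-EGFP males, and zygotes developed to the 2-cell stage before transfer into ICR foster mothers. The study lists its control embryos as given a base editor without any sgRNA, but does not say this separately for the embryos of the small RNA libraries. Embryos were collected from the decidua and Exe was separated from the epiblast (Epi) with a needle. The number of embryos per library and the pooling of embryos were not stated, so p-values measure the spread between these libraries, which may be partly technical. Each library was made from 100 pg of total RNA by Cas9-assisted small RNA-sequencing (CAS-seq), in which the cDNA of ligated small RNAs is treated with Cas9 and an sgRNA before it is amplified by transcription in vitro and by PCR. The 7 libraries of control Epi (4 at E6.5 and 3 at E7.5) and the 24 Exe libraries of *Dnmt3a/3b*-DKO, *Dnmt1*-KO and *Dnmt*-null embryos, in which genes of DNA methyltransferases were disrupted by base editing, served for comparison.

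Exe arises from the polar trophectoderm, lies proximal to the epiblast and contributes to the chorion and, later, to the placenta. Between the stages compared here the embryo gastrulates, and mesoderm forms and spreads into the extraembryonic region. A miRNA is cut as one arm (5p or 3p) from a hairpin and pairs with target mRNAs mainly through its seed, so miRNAs with a common seed can share targets. Several clusters are known from these lineages. The miR-290-295 cluster is abundant in early embryonic and trophoblast cells, the miR-302/miR-367 cluster in the primed epiblast, and the large cluster within an intron of the imprinted gene *Sfmbt2* in trophoblast and placenta.

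The miRNAs on which the stage comparison turned are printed below, 5′ to 3′, with the seed (bases 2 to 8) in capitals. They are from RefSeq on GRCm38.p6, and are shown because miR-10a and miR-10b, miR-141 and miR-200a, and miR-294, miR-295, miR-302b and miR-302d form 3 groups of equal seed, the last of which holds members that changed in opposite directions.
miR-10a-5p: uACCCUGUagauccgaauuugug
miR-10b-5p: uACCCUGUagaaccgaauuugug
miR-322-5p: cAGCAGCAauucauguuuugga
miR-322-3p: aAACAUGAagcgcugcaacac
miR-351-5p: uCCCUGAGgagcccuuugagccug
miR-335-5p: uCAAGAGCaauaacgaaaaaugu
miR-335-3p: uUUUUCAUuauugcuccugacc
miR-126a-3p: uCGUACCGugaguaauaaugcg
miR-142a-5p: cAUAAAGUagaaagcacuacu
miR-302b-3p: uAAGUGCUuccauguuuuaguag
miR-302d-3p: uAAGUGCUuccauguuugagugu
miR-294-3p: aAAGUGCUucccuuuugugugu
miR-295-3p: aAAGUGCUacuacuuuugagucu
miR-141-3p: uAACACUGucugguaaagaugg
miR-200a-3p: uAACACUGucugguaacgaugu
miR-96-5p: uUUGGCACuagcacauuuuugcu
The table of sequences did not hold miR-143-3p, miR-145a-3p, miR-126a-5p or miR-302a-3p.

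The E7.5 libraries were deeper, with totals of 499399 to 2069678 counts against 65751 to 202093 at E6.5. At E6.5, 332, 531, 540 and 454 miRNAs had at least 1 count in replicates 1 to 4, and at E7.5 616 to 662 did. When every library was thinned at random to 65751 counts, the richest E6.5 library held 487 to 506 miRNAs over 20 draws, and the richest E7.5 library 523 to 538. Replicate 1 of E6.5 stood apart, with the fewest counts, 98 of the 404 tested entries at 0, and Spearman correlations of 0.760 to 0.788 with the other E6.5 libraries, whereas E7.5 libraries correlated at 0.867 to 0.877 with each other. A count of 0 in it allows up to 45.6 CPM, by the limit of 3 counts, and such limits cover counting error only, since no molecular identifiers were described. Libraries of one stage differed by far more than sampling noise (chi-square per degree of freedom 19.1 to 84.0), so none was treated as a copy of another, which does not show whether the spread is biological. The tissue labels were checked against the clusters known from each lineage. The *Sfmbt2* cluster took 5.76 to 9.96% of the counts in E6.5 Exe and 5.28 to 6.49% in E7.5 Exe, against 0.777 to 3.34% and 0.218 to 0.274% in Epi. The miR-302/miR-367 cluster took 2.31 to 4.19% and 4.08 to 5.83% in Exe, against 16.4 to 24.4% and 22.5 to 23.6% in Epi.

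Of 404 entries tested, 31 were higher and 10 lower at E7.5 (edgeR quasi-likelihood test, Benjamini-Hochberg adjusted p under 0.05 and an absolute log2 fold change above 0.5). These calls were 10.1% of the entries tested, 7.67% higher and 2.48% lower. The libraries of the stages did not overlap for 18.6% of entries, 56 of them higher (13.9%) and 19 lower (4.7%) at E7.5. The median log2 fold change of all tested entries was 0.03. The largest rises included those of miR-10a-5p and miR-10b-5p, encoded in Hox clusters, of miR-142a-5p and the miR-126 arms of blood and endothelial cells, and of the X-linked miR-322/miR-503 cluster. The log2 fold changes of miR-145a-3p (3.60), miR-1306-5p (3.33) and miR-335-5p (2.70) lay within the range of these. The falls included miR-295-3p, the second most abundant entry, with other miR-290-295 members, and miR-200a-3p, miR-141-3p and miR-96-5p of epithelia. Some entries are counted on the same reads, such as miR-126a-3p and miR-126b-5p, which lie on opposite strands of one site and had equal counts. With the reads of each such set counted once, 26 of 372 entries were higher and 13 lower. The call counts depended on single libraries, with 64 calls without E6.5 replicate 1, 66 without E6.5 replicate 4, 17 without E7.5 replicate 1 and 18 without E7.5 replicate 3. Without E7.5 replicate 1, and likewise without E7.5 replicate 3, only 1 entry was called lower.

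**Figure D1:**
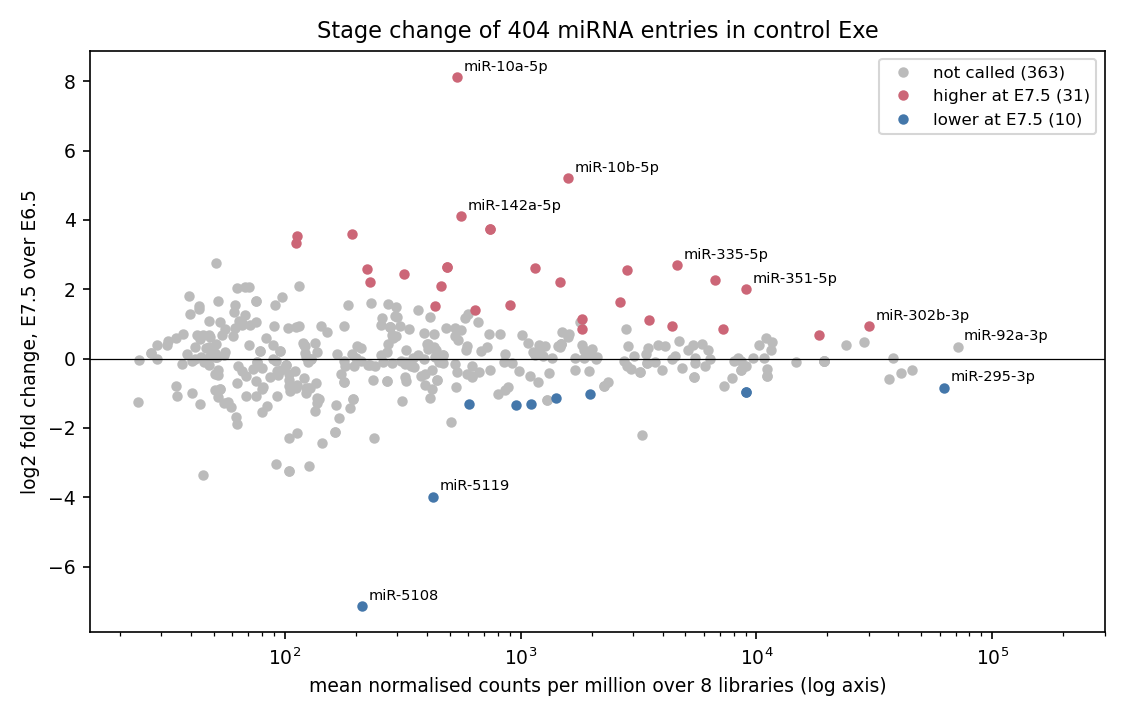
Each point is 1 of 404 miRNA entries in control Exe, with its mean level over the 8 libraries in normalised CPM on a log x axis and its log2 fold change (E7.5 over E6.5) on the y axis. Red points are the 31 entries called higher, blue points the 10 called lower. Rises reach 8.12 on the log2 scale for miR-10a-5p, and miR-5108 has the lowest value, -7.13.

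Depth differed with stage, so the comparison was repeated with all libraries thinned to 65751 counts. At equal depth, 253 entries could be tested, and 26 were higher and 20 lower. Of the 41 entries called at full depth, 36 were tested again and 33 were called in the same direction, 25 of 28 higher and 8 of 8 lower. The called entries that could not be tested at equal depth were miR-142a-5p, miR-322-5p, miR-145a-3p, miR-5108 and miR-5119. Over the 20 draws, 20 to 29 entries were higher and 11 to 25 lower. At equal depth, miR-10b-5p had a log2 fold change of 5.10 (SE 0.74), miR-335-5p of 2.62 (SE 0.30), miR-302b-3p of 0.80 (SE 0.22) and miR-295-3p of -0.99 (SE 0.19). The share of higher calls among all calls fell from 75.6% to 56.5%.

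The largest rises were of miRNAs from Hox clusters, whose host loci pattern the body axis and are switched on as mesoderm forms. For miR-10a-5p, the raw counts were 1, 0, 1 and 0 at E6.5 and 1054, 115, 2193 and 654 at E7.5. Every E7.5 library was above every E6.5 library, and replicate 2 was the lowest of E7.5. Pooled over libraries, 2 of 563284 counts at E6.5 against 4016 of 4025407 at E7.5 gave a ratio of 281 (95% exact counting interval 77.7 to 2321). The fitted change had an adjusted p = 0.000192. For miR-10b-5p, of the same seed, normalised CPM was 57.8, 48, 146 and 67.8 at E6.5 and 5613, 419, 2981 and 3399 at E7.5 (log2 fold change 5.21, SE 0.70, adjusted p = 0.000334). Again no library overlapped, and E7.5 replicate 2 was far below the rest of its stage.

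Of the 10 miRNA entries of Hox clusters, 9 had counts and only the 5p arms of 10a and 10b passed the filter on low counts. Both rose, where 7.67% of all entries were higher. The level of miR-10a-5p was enough for that filter only at E7.5, so the count of 2 of 2 is decided in part by the filter. Together the list took 0.00585 to 0.0193% of the counts at E6.5 and 0.0682 to 0.973% at E7.5. One further member, miR-615-3p, from an intron of a *Hoxc* gene, was not tested because E7.5 replicate 2 was too low, and is named after its values were seen. It had 0, 0, 2 and 1 counts at E6.5 and 512, 19, 1160 and 294 at E7.5, a pooled ratio of 92.6 (95% exact counting interval 31.6 to 449). The same E7.5 library was lowest for miR-615-3p, miR-10a-5p and miR-10b-5p.

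**Figure D2:**
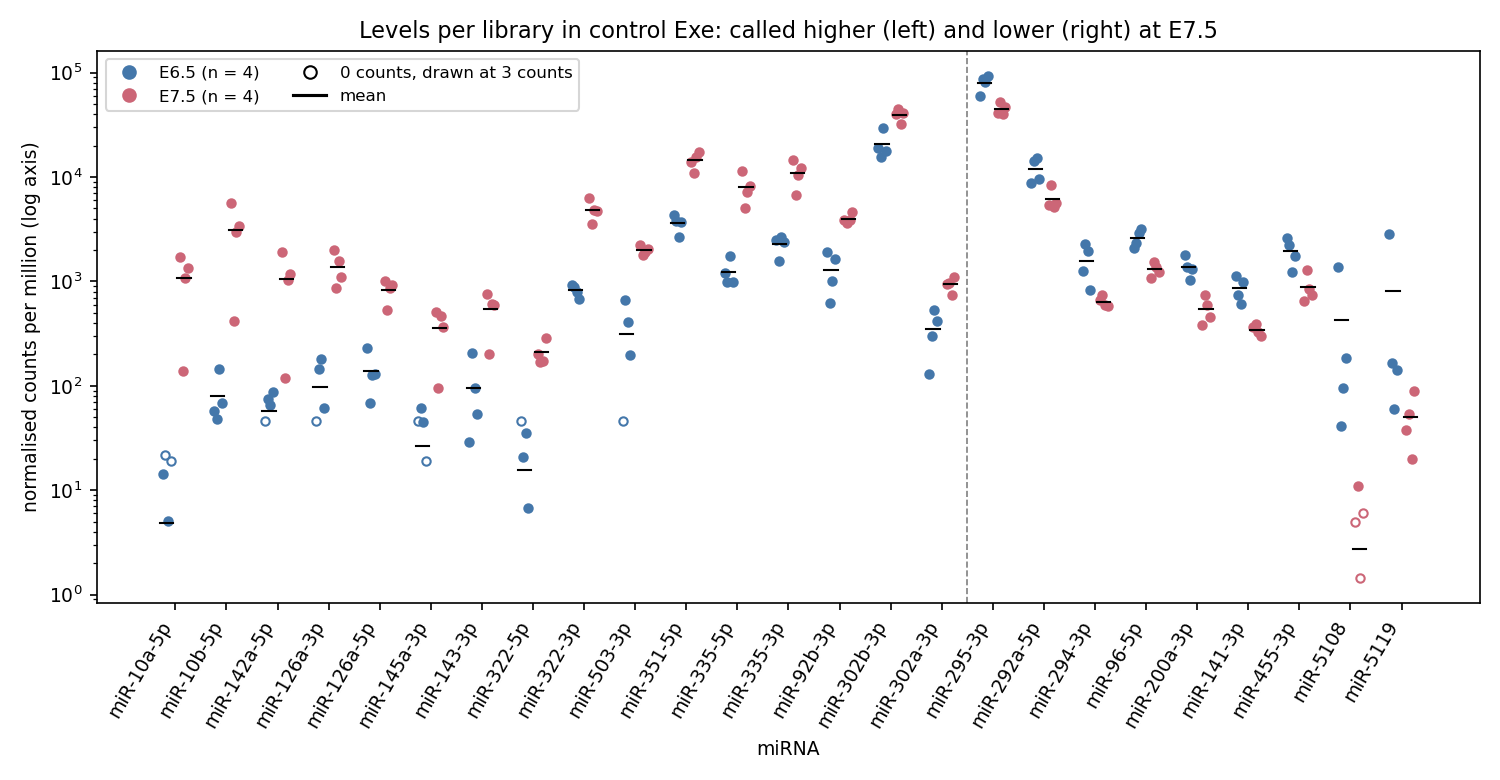
Normalised CPM (log y axis) of 25 called miRNAs in each of the 4 E6.5 (blue) and 4 E7.5 (red) control Exe libraries, with the mean as a black line. Open circles are libraries with 0 counts, drawn at the level of 3 counts. The stages do not overlap for miR-10b-5p, miR-335-5p or miR-295-3p, and E7.5 replicate 2 (the second red point of each group) is low for miR-10a-5p, miR-10b-5p and miR-142a-5p.

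The miR-322/miR-503 cluster on the X chromosome, whose miR-322 and miR-503 slow the cell cycle and act in muscle and mesoderm differentiation, rose in most of its tested members. Of its 10 tested members, 6 were called higher (7.67% of all entries were), none lower, and all 10 had positive values. Their median was 2.11 against 0.03 over all entries. Of the 6, miR-322-5p and both arms of miR-503 had 0 counts in E6.5 replicate 1. They passed the filter on low counts only with the help of E7.5 libraries. The count of 6 of 10 is thus decided in part by that filter. The cluster took 0.742, 0.813, 0.592 and 0.604% of all counts in E6.5 replicates 1 to 4, and 3.11, 2.22, 2.89 and 3.25% at E7.5. The 3p arm of miR-322 was at 925, 878, 801 and 678 normalised CPM at E6.5 and at 6325, 3560.4, 4839 and 4685 at E7.5 (log2 fold change 2.57, SE 0.24, adjusted p = 4.25e-05). Every E7.5 library was above every E6.5 library, with the replicates of E6.5 close together.

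The most abundant member was miR-351-5p, which carries the same seed as miR-125a-5p and miR-125b-5p. Its normalised CPM was 4307, 3806, 2649 and 3742 at E6.5 and 14059, 10948, 15543 and 17389.9 at E7.5 (log2 fold change 2.0, SE 0.22, adjusted p = 7.39e-05). No library overlapped. The opposite arm, miR-351-3p, rose too (log2 fold change 2.22, SE 0.31, adjusted p = 0.000526). Through miR-351-5p, the summed share of the 3 tested miRNAs with that seed was 1.43 ± 0.229% of all counts at E6.5 and 2.57 ± 0.343% at E7.5 (SD, n = 4 each). The values of miR-125a-5p and miR-125b-5p themselves were 0.01 and -1.70, with adjusted p of 0.992 and 0.189.

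The lower members of the cluster were sparser at E6.5. For miR-322-5p, which has the seed of the miR-15/16 family, normalised CPM was 0, 20.6, 35.3 and 6.78 at E6.5 and 204, 169.7, 172 and 289 at E7.5 (log2 fold change 3.55, SE 0.79, adjusted p = 0.0147). The stages did not overlap, though the E6.5 values rest on 0, 3, 7 and 1 counts. Both arms of miR-503 rose as well, by 2.61 (3p) and 2.60 (5p) on the log2 scale, each with an adjusted p of 0.0217 and each at 0 in E6.5 replicate 1. The 4 members that did not pass were of miR-450, with values from 0.64 to 1.55. In the miR-15/miR-16/miR-195 family, 0 of 3 tested entries changed, with a median of 0.02.

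Both arms of miR-335, which lies within the imprinted, paternally expressed gene *Mest*, rose. For miR-335-5p, normalised CPM was 1199.6, 981, 1747 and 989.7 at E6.5 and 11548, 5099.9, 7217 and 8160.0 at E7.5 (log2 fold change 2.7, SE 0.29, adjusted p = 7.39e-05). For miR-335-3p, the values were 2471, 1570.5, 2649 and 2406 and 14637, 6803, 10348 and 12329.6 (log2 fold change 2.28, SE 0.27, adjusted p = 0.000115). All E7.5 libraries were above all E6.5 libraries for both arms, and E7.5 replicate 2 was again the lowest of its stage.

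The other imprinted loci beside *Mest* were *Igf2*-*H19* (miR-483 and miR-675) and *Gnas* (miR-296 and miR-298). Of the 9 tested entries of this list, only the 2 arms of miR-335 passed (7.67% of all entries were higher), and the median was 0.42. The most abundant of the rest, miR-298-5p, was at 5983, 10369, 8521 and 14289 normalised CPM at E6.5 and at 13599, 10897, 14438 and 15382 at E7.5 (log2 fold change 0.47, SE 0.25, adjusted p = 0.302). Its stages overlapped. The value of miR-483-3p was 1.07 (SE 0.41, adjusted p = 0.129).

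The *Dlk1-Dio3* locus on chromosome 12 holds the largest group of imprinted miRNAs, expressed from the maternal allele. Its 110 entries lie between *Dlk1* (start 109452485, GRCm38) and *Dio3* (end 110281097). Of 75 tested, 6 rose and none fell (7.67% of all entries were higher), and the median was 0.25. The 6 were miR-412-3p (1.51), miR-494-3p (1.12), miR-411-3p (0.95), miR-541-5p (0.86), miR-1193-3p (0.84) and miR-409-3p (0.69), on the log2 scale. The largest in abundance of these, miR-409-3p, was at 18037, 11803, 14830.3 and 11889 normalised CPM at E6.5 and at 23409, 20424, 23950.4 and 23367 at E7.5 (log2 fold change 0.69, SE 0.19, adjusted p = 0.0305). No library overlapped, but its call was lost in 10 of 19 alternative analyses, and that of miR-1193-3p in 14 of 19.

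The most abundant member of the locus had a value near 0. For miR-127-3p, which is antisense to the imprinted gene *Rtl1*, normalised CPM was 34817, 31389, 27445 and 57454 at E6.5 and 36099.5, 35383, 44003 and 36797 at E7.5 (log2 fold change 0.01, SE 0.23, adjusted p = 0.992), with the widest spread at E6.5. The value of miR-434-3p, its neighbour, was 0.25 (adjusted p = 0.42). In all, the locus took 13.4 to 16.9% of the counts at E6.5 and 16.4 to 19.5% at E7.5.

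Of the miRNAs known from blood and endothelial cells, 5 of 12 tested entries rose and none fell (7.67% of all entries were higher), with a median of 0.92. With shared reads counted once, these are 3 of 8. They were the arms of miR-126, which lies in an intron of *Egfl7* and marks endothelium and early blood progenitors, and miR-142a-5p of the haematopoietic lineage. For miR-126a-3p, normalised CPM was 0, 144.02, 181 and 61 at E6.5 and 2009, 864, 1560.2 and 1100.5 at E7.5 (log2 fold change 3.74, SE 0.63, adjusted p = 0.00176). For miR-126a-5p, it was 231, 68.6, 125.9 and 129 and 1020.1, 538, 861 and 919 (log2 fold change 2.63, SE 0.43, adjusted p = 0.00176). Neither arm overlapped between stages, and the entries miR-126b-5p and miR-126b-3p are the same reads. Normalised CPM of miR-142a-5p was 0, 75.4, 65.5 and 88.1 at E6.5 and 1914, 118, 1033 and 1188 at E7.5 (log2 fold change 4.1, SE 0.80, adjusted p = 0.00595). Its E7.5 libraries spread widely, and replicate 2 was only just above the highest E6.5 library. In E6.5 replicate 1, miR-126a-3p and miR-142a-5p had 0 counts, so both passed the filter on low counts only with the help of E7.5 libraries. The count of 5 of 12 is thus decided in part by that filter.

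Other members of that list did not pass. For miR-451a and miR-144-3p, markers of red cells, the values were -0.52 (adjusted p = 0.841) and -0.46 (adjusted p = 0.932). The 4 entries of miR-486 each had 0.92 (adjusted p = 0.471). There were 0 counts of miR-223-3p, a myeloid marker, in all 8 libraries. The list as a whole took 0.104, 0.0969, 0.0936 and 0.151% of the counts at E6.5 and 0.757, 0.223, 0.48 and 0.484% at E7.5, so every E7.5 library was above the E6.5 libraries. In such bulk samples, fewer cells of a type and less RNA per cell cannot be told apart.

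Of 5 tested entries of the mesenchymal list, 2 were called higher (7.67% of all entries were) and none lower. The miR-143/miR-145 cluster of mesoderm and smooth muscle rose, with miR-143-3p at 28.9, 205.7, 95.7 and 54.2 normalised CPM at E6.5 and at 766, 202, 611 and 597 at E7.5 (log2 fold change 2.45, SE 0.61, adjusted p = 0.0217). The lowest E7.5 library, replicate 2, was just below the highest E6.5 library. For miR-145a-3p, the values were 0, 61.7, 45.3 and 0 and 506, 95.8, 466.6 and 365 (log2 fold change 3.6, SE 0.93, adjusted p = 0.0245), with no overlap. This entry passed the filter on low counts only with the help of E7.5 libraries. By contrast, miR-199a-3p (counted on the same reads as miR-199b-3p), of stromal and mesenchymal cells, had a value of -3.24 (SE 1.08, adjusted p = 0.0798), and miR-199a-5p of -2.16 (adjusted p = 0.099). Neither was called lower. The stages of miR-199b-3p overlapped, and its highest level was in E6.5 replicate 1 (506 normalised CPM). With miR-199 counted once, the median of the list was 0.15 in place of -2.16. At equal depth, where miR-145a-3p and miR-199a-5p could not be tested, it was 2.53, which is the value of miR-143-3p. There were 0 counts of miR-199b-5p in any library and at most 2 of miR-214-3p. The summed share was 0.0242 to 0.0852% at E6.5 and 0.0474 to 0.168% at E7.5.

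No marker of endoderm, neural or muscle lineages passed. Of the 11 entries for endoderm, 3 were tested and none passed, with miR-192-5p at 0.36 (adjusted p = 0.471) and miR-375-3p at 1.19 (adjusted p = 0.419). No neural entry passed the low-count filter, and the neural list took at most 0.00862% of the counts. Among muscle miRNAs, miR-133a-3p alone was tested (2.08, adjusted p = 0.22), and miR-206-3p was at 0 in all 8 libraries.

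E7.5 replicate 2 was the lowest library of its stage for 25 of the 31 entries called higher (80.6%) and the highest for 9 of the 10 called lower, while it was lowest for 30% of all tested entries. Without it, 31 entries were higher and 11 lower, and 37 of the 41 calls were made again. It was neither the shallowest nor the deepest of the E7.5 libraries, and the part of this library in the calls beyond that analysis was not tested.

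The miR-290-295 cluster on chromosome 7, which promotes rapid cell cycles in early embryonic cells, fell in part. All 17 tested entries had negative values, with a median of -0.78, and 4 passed, against 2.48% of all entries called lower. With shared reads counted once, 13 entries were tested (median -0.80). Among the 4 that passed, miR-292a-5p and miR-292b-3p are the same reads. The most abundant, miR-295-3p, was at 59575, 87610.5, 81373 and 93224 normalised CPM at E6.5 and at 40962, 52269.9, 40179 and 46702 at E7.5 (log2 fold change -0.84, SE 0.19, adjusted p = 0.0146). Even E6.5 replicate 1, the lowest of its stage, was above every E7.5 library. For miR-292a-5p (with miR-292b-3p on the same reads), the values were 8744, 14388, 15163 and 9632 and 5355, 8475, 5203 and 5672 (log2 fold change -0.96, SE 0.24, adjusted p = 0.0217). For miR-294-3p, they were 1257, 2270.0, 1959 and 834 and 657, 736, 590.2 and 581 (log2 fold change -1.3, SE 0.33, adjusted p = 0.0217). The stages did not overlap for either, with E7.5 replicate 2 the highest of its stage. The calls of miR-295-3p, miR-292a-5p and miR-294-3p were lost in 3, 4 and 6 of 19 alternative analyses. All were lost without E7.5 replicate 1 and without E7.5 replicate 3.

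Other abundant members did not pass. For miR-291a-5p, normalised CPM was 34658, 46010.1, 42734 and 51686 at E6.5 and 26103, 34269, 26178 and 30196 at E7.5 (log2 fold change -0.58, SE 0.18, adjusted p = 0.0597), with no overlap, and at equal depth it passed (-0.74, SE 0.18, adjusted p = 0.0137). The value of miR-293-3p was -0.42 (adjusted p = 0.29). The cluster took 19.5, 28.5, 26.8 and 27.5% of all counts at E6.5 and 14.3, 18.2, 13.8 and 15% at E7.5.

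The miR-302/miR-367 cluster, which is known from the epiblast, had 2 of 9 tested entries called higher in Exe (7.67% of all entries were) and none lower. Of the 9 values 7 were positive, with a median of 0.72, and miR-367-3p had -1.3 (adjusted p = 0.433). The most abundant, miR-302b-3p, was at 19107, 15677, 29761 and 17753 normalised CPM at E6.5 and at 39973, 45195, 31929 and 40798 at E7.5 (log2 fold change 0.94, SE 0.22, adjusted p = 0.0166). The lowest E7.5 library was only just above the highest E6.5 library, replicate 3 of each stage. Levels of miR-302a-3p were 130.1, 301.8, 534 and 420.3 at E6.5 and 946, 966, 745 and 1100.5 at E7.5 (log2 fold change 1.41, SE 0.40, adjusted p = 0.0371), also without overlap, but it was not called at equal depth (1.16, adjusted p = 0.0731) and its call was lost in 7 of 19 alternative analyses. In Epi of the same controls, miR-302b-3p was at 124428 to 195413 normalised CPM at E6.5 and at 203658 to 209125 at E7.5 when all 15 control libraries were scaled together. The part of epiblast cells in the Exe level was not tested.

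Because miR-302b-3p and miR-302d-3p have the seed of miR-295-3p and miR-294-3p, as printed above, and of miR-291a-3p, their levels were summed. The sum leaves out miR-302a-3p, which the table of sequences did not hold, and miR-302c-3p, which has another seed by bases 2 to 8 of its RefSeq sequence. The 5 miRNAs summed together took 9.80, 13, 13.7 and 11.8% of all counts at E6.5 and 9.59, 11.1, 8.14 and 9.84% at E7.5. The ranges overlapped, since E6.5 replicate 1 was as low as the E7.5 libraries. Within the group, miR-295-3p took 9.36 ± 1.47% at E6.5 and 5.03 ± 0.595% at E7.5, and miR-302b-3p 2.42 ± 0.797% and 4.42 ± 0.638% (SD, n = 4 each). The main member was miR-295-3p at both stages, by a smaller margin at E7.5.

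**Figure D3:**
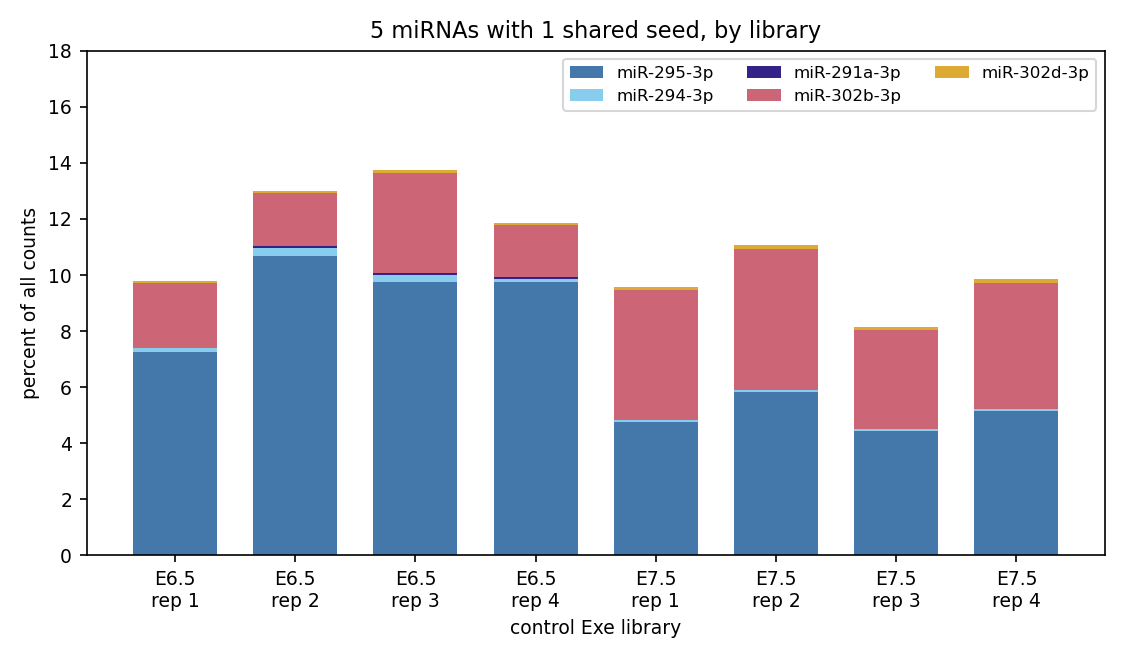
Percent of all counts (y axis, entries with shared reads counted once) taken by 5 miRNAs of a common seed in each of the 8 control Exe libraries (x axis), as stacked bars. From E6.5 to E7.5 the blue part of miR-295-3p shrinks (9.36 to 5.03% on average) and the red part of miR-302b-3p grows (2.42 to 4.42%).

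The *Sfmbt2* intronic cluster, with 48 tested entries, had no member called in either direction. Its median was -0.42, or -0.49 with shared reads counted once, and 5 entries had positive values. At the unadjusted threshold (p under 0.05), 7 were lower, among them miR-669c-5p (-0.55) and miR-467a-3p (-1.20), and none higher, where 9.65% of all entries were lower, 12.1% higher and 21.8% either. For its most abundant entry, miR-466e-3p, normalised CPM was 20422, 16919, 28462 and 13191 at E6.5 and 19578, 22172, 16547 and 17502 at E7.5 (log2 fold change -0.06, SE 0.23, adjusted p = 0.942). The stages overlapped fully. Of the growth-promoting miR-17-92 family clusters, 0 of 21 tested entries changed, and the most abundant entry of all, miR-92a-3p, was at 78884, 51915, 51954 and 68503 and 73498, 76708, 77922 and 91524 (log2 fold change 0.35, SE 0.18, adjusted p = 0.307).

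Epithelial miRNAs fell in part. The miR-200 family keeps epithelia from turning into mesenchyme by holding down ZEB factors, and its members fall into groups by seed. The members with the seed of miR-200a-3p fell. For miR-200a-3p, normalised CPM was 1778, 1385, 1027 and 1301 at E6.5 and 381, 743, 597 and 452 at E7.5 (log2 fold change -1.33, SE 0.31, adjusted p = 0.0166). For miR-141-3p, it was 1127, 734, 604 and 983 and 365, 393, 327 and 299.6 (log2 fold change -1.31, SE 0.33, adjusted p = 0.0217). Neither overlapped between stages. With another seed, miR-200b-3p and miR-200c-3p had values of 0.36 and 0.01 (adjusted p = 0.436 and 0.992), although miR-200b lies with miR-200a, and miR-200c with miR-141, in a common cluster. The difference between these members was not tested. Over the list, 2 of 8 tested entries were lower (2.48% of all entries were) and none higher, and the median was -0.10.

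In the miR-183/miR-96/miR-182 cluster of sensory and epithelial cells, 1 member fell. Normalised CPM of miR-96-5p was 2110.1, 2311, 2885 and 3193 at E6.5 and 1074, 1544, 1371 and 1225 at E7.5 (log2 fold change -1.01, SE 0.24, adjusted p = 0.0166), with no overlap. Its cluster partners miR-182-5p and miR-183-5p had values of 0.02 and -0.01 (both adjusted p = 0.992). Thus 1 of 3 tested entries passed, where 2.48% of all entries were lower. The difference between the cluster partners was not tested.

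All 9 tested entries of the let-7 family, which accompanies differentiation, had negative values (median -1.12), and none passed at full depth. For let-7a-5p, normalised CPM was 2052, 377, 368 and 386 at E6.5 and 246, 228, 209 and 205.8 at E7.5 (log2 fold change -1.82, SE 0.57, adjusted p = 0.0597). At equal depth it was called lower (-1.94, SE 0.60, adjusted p = 0.0411). The highest value by far was that of E6.5 replicate 1, and the list took 0.711% of the counts there against 0.0980 to 0.209% in the other 7 libraries. The miR-99/miR-100/miR-125 families, of which 0 of 5 tested entries changed, had a median of -0.30.

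Of the entries in no list, 6 rose and 3 fell. The rises were of miR-1306-5p (3.33), which lies within the miRNA processing gene *Dgcr8*, miR-674-3p (2.21), miR-365-3p (2.1), miR-92b-3p (1.64), miR-224-5p (1.54) and miR-342-3p (1.14), as log2 fold changes. For miR-92b-3p, which has the seed of miR-92a-3p, normalised CPM was 1908, 624, 1012 and 1640.4 at E6.5 and 3839, 3661, 3891 and 4638 at E7.5 (log2 fold change 1.64, SE 0.31, adjusted p = 0.00547). For miR-342-3p, it was 1228, 1077, 1027 and 1247 and 2604, 2035, 2539.5 and 2884 (log2 fold change 1.14, SE 0.23, adjusted p = 0.00629). Neither overlapped, and both were called in all 19 alternative analyses.

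The falls were of miR-455-3p, at 2587, 2222, 1229 and 1749 normalised CPM at E6.5 and 644, 1286, 844 and 736 at E7.5 (log2 fold change -1.14, SE 0.31, adjusted p = 0.0305), and of miR-5108 and miR-5119. The ranges of miR-455-3p overlapped slightly through E6.5 replicate 3 and E7.5 replicate 2. For miR-5108, normalised CPM was 1373, 41.1, 95.7 and 183 at E6.5 and 0, 10.9, 0 and 0 at E7.5 (log2 fold change -7.13, SE 1.54, adjusted p = 0.012), and for miR-5119, 2847, 165, 60.4 and 142.3 and 37.8, 53.3, 20.1 and 89.7 (log2 fold change -3.98, SE 1.09, adjusted p = 0.0311). Both were highest in E6.5 replicate 1 by a wide margin, and without that library miR-5119 was not called (-1.28), whereas miR-5108 still was. As a class, entries of doubtful origin took 10, 3.77, 2.51 and 7.39% of the counts at E6.5, most of them miR-5099, and 4.25, 4.23, 4.77 and 4.99% at E7.5.

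The remaining lists held no called entry. For example, 0 of 10 tested entries of the miR-30 family (median -0.04), 0 of 6 of the miR-23/27/24 clusters (median 0.91), 0 of 6 of the miR-130/miR-301 family (median 0.65) and 0 of 5 of the miR-148/miR-152 family (median -0.10), known to target *Dnmt1*, passed. The same was true of the miR-181 family (0 of 2, median 1.46), of the single tested entry of the miR-34 family (1.25) and of miR-21a-5p and miR-210-3p, which respond to stress and hypoxia (0.06 and -0.45). The miR-29 family, which targets *Dnmt3a* and *Dnmt3b*, was too low to test, with at most 0.0113% of the counts.

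**Figure D4:**
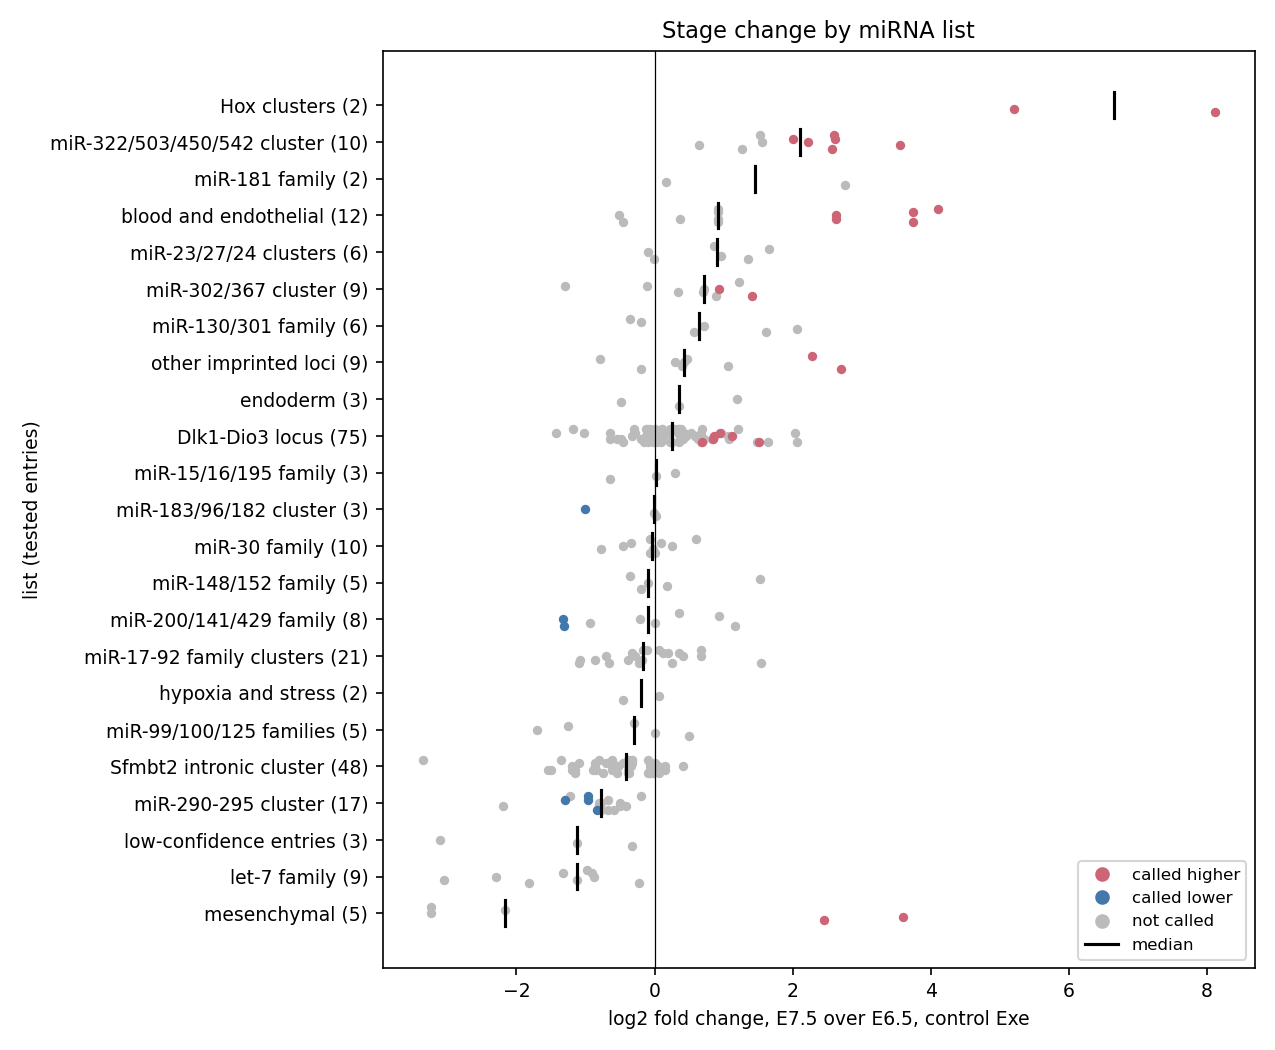
Log2 fold change (E7.5 over E6.5, x axis) of the tested entries of 23 miRNA lists (y axis, number tested in brackets) in control Exe, red where called higher, blue where called lower, with the median as a black bar. The Hox and miR-322/miR-503 lists lie highest (medians 6.66 and 2.11), and all 17 points of the miR-290-295 cluster and all 9 of let-7 are below 0. The Hox median is of 2 entries, of which miR-10a-5p was high enough for the filter on low counts only at E7.5.

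As shares of all counts, the 10 most abundant entries together took 45.0 to 50.1% at E6.5 and 41.8 to 44.7% at E7.5. Of these, 3 differed at the smallest p that an exact two-sided permutation test of 4 against 4 libraries can give (p = 0.0286), namely miR-295-3p (9.36 ± 1.47 to 5.03 ± 0.595%), miR-291a-5p (5.09 ± 0.614 to 3.26 ± 0.408%) and miR-191-5p (2.76 ± 0.481 to 3.72 ± 0.346%), all mean ± SD (n = 4). After adjustment over the 10 entries, the p of these exact permutation tests was 0.0952. The share of miR-302b-3p gave an exact permutation p = 0.0571, and 6 others gave 0.0857 to 0.886. Across the 81.2% of tested entries with a sequence (shared reads counted once), the Spearman correlation of log2 fold change with GC content was 0.0598, and median GC was 45.5% for 25 entries called higher, 40.9% for 9 called lower and 47.8% over all, as a description over entries that share the 8 libraries.

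To ask whether stage changes differed between the tissues, the change in control Exe was compared with that in control Epi by an interaction term over the 15 control libraries. Of 558 entries tested, 63 had a higher stage change in Exe and 12 a lower one (13.4% called, 2.15% lower). The miR-290-295 cluster fell more in Epi, with 15 of 18 entries higher in this difference (11.3% of all entries were), and medians of -2.25 in Epi and -0.78 in Exe. Among these entries, those of miR-290b and miR-292b are counted on the reads of miR-290a and miR-292a. At E6.5 the cluster took 16 to 18.5% of the counts of Epi and at E7.5 4.4 to 4.51%. For miR-295-3p, the normalised CPM of Epi was 55852 to 59366 at E6.5 and 14115 to 14721 at E7.5, a log2 fold change of -1.91 (difference 1.14, SE 0.19, adjusted p = 0.00189).

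For the *Sfmbt2* cluster, 28 of 58 tested entries differed in the same direction, where 11.3% of all entries did, and none in the other. The medians were -2.65 in Epi and -0.42 in Exe. Many of these entries are counted on the same reads, such as the 3p arms of miR-466a, miR-466b, miR-466c, miR-466e and miR-466p. In Exe alone, the 48 tested entries became 36 with shared reads counted once. The entry miR-466e-3p was at 2285 to 11984 normalised CPM in E6.5 Epi and at 889 to 1079.6 in E7.5 Epi (difference 2.61, SE 0.58, adjusted p = 0.00706). The E6.5 Epi libraries spread widely, and the share of the whole cluster in them ranged from 0.777 to 3.34%. The cluster marks trophoblast, and the part of Exe cells in the E6.5 Epi libraries was not tested. Of the largest differences over all entries, that of miR-669o-5p and that of miR-669h-5p belong to this cluster, and both were at 0 in all 3 E7.5 Epi libraries.

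Some rises were larger in Exe. For miR-142a-5p, levels in Epi went from 205 to 241 normalised CPM at E6.5 to 4.6 to 61.2 at E7.5, opposite to Exe (difference 6.99, SE 1.18, adjusted p = 0.00189). For miR-335-5p, Epi was at 4889 to 6629 and 4664 to 7252, and on the same scale Exe was at 923 to 1699 and 4868 to 11698 (difference 2.68, SE 0.39, adjusted p = 0.000996). For miR-126a-3p, Epi was at 151 to 209 and 151 to 433 (difference 3.13, SE 0.79, adjusted p = 0.0134). Each of these differences was called in the direction of a higher change in Exe.

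Others rose in both tissues. In Epi, miR-10a-5p had a log2 fold change of 7.20, miR-10b-5p of 4.30, miR-351-5p of 2.92 and miR-322-3p of 2.92, and their differences between tissues did not pass (adjusted p = 0.718, 0.498, 0.0980 and 0.717). In the X-linked cluster, 0 of 11 entries differed. Other miRNAs rose more in Epi, namely miR-92b-3p (difference -1.48, SE 0.39, adjusted p = 0.0173) and miR-375-3p, a miRNA of endoderm and neuroendocrine cells (difference -5.94, SE 0.90, adjusted p = 0.000996), whose Epi level went from 14.4 to 45.3 to 2823 to 3816 normalised CPM. For miR-199b-3p, the difference was in the same direction (difference -4.83, SE 1.48, adjusted p = 0.0363). Without E7.5 Epi replicate 3, 30 entries in all were called, without E7.5 Epi replicate 2, 38, without E7.5 Exe replicate 1, 39, and without E7.5 Exe replicate 4, 49.

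**Figure D5:**
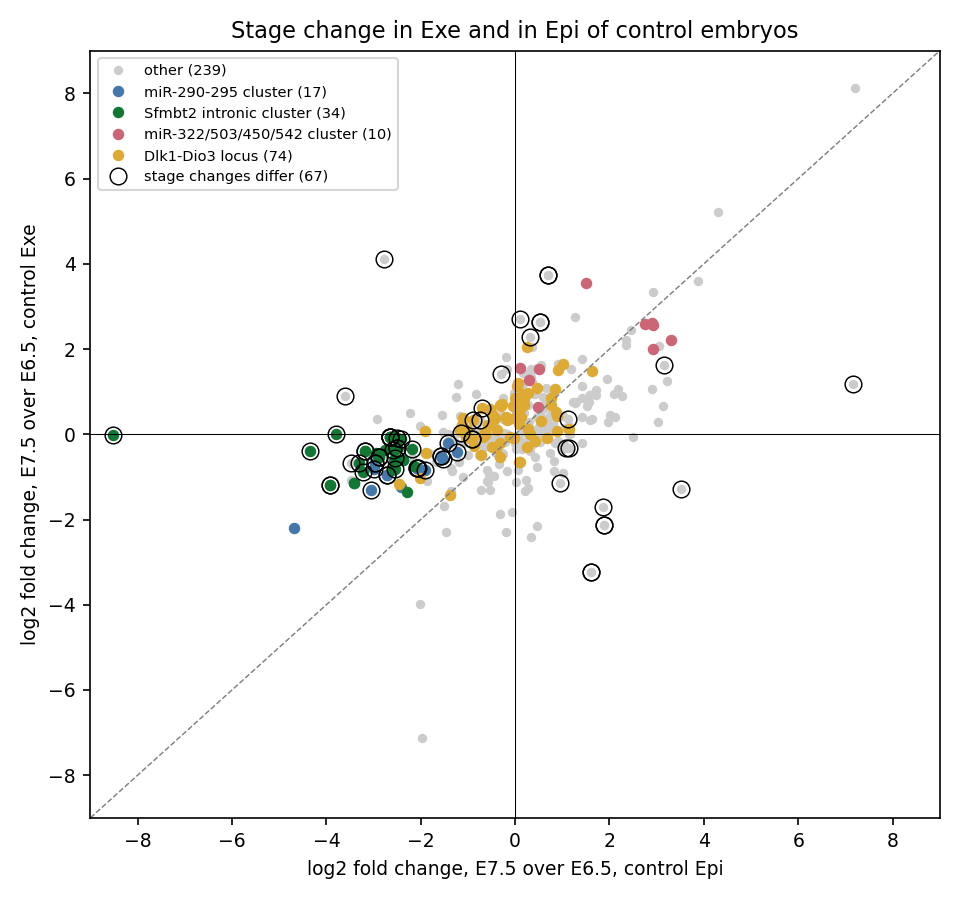
Log2 fold change (E7.5 over E6.5) in control Epi (x axis) and control Exe (y axis) of the 374 entries tested in both, with 4 groups in colour, the line of equal change dashed, and the entries whose stage changes differed between tissues circled (55 higher and 12 lower in Exe). Points of the miR-290-295 and *Sfmbt2* clusters lie above the dashed line at the lower left (Epi medians -2.25 and -2.65), and those of the miR-322/miR-503 cluster lie in the upper right part.

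In Exe of the *Dnmt* mutants, fitted separately and with no library in common with the controls, 19 of 439 entries were higher and 12 lower at E7.5 for *Dnmt1*-KO (7.06% called), 53 of 480 higher and 36 lower for *Dnmt3a/3b*-DKO (18.5%), and 1 of 358 higher and none lower for *Dnmt*-null (0.279%). By unadjusted p under 0.05, 36 entries (10.1%) were higher and 23 (6.42%) lower in the *Dnmt*-null fit, 16.5% in all, and the single call there was of miR-298-5p (log2 fold change 1.11, SE 0.20, adjusted p = 0.0443). Of the 41 entries called in control Exe, 14 (34.1%) were called in the same direction in *Dnmt1*-KO, or 45.2% of its 31 calls, and 32 (78.0%) in *Dnmt3a/3b*-DKO, or 36.0% of its 89. The sign was that of the controls for 40 of 41 in *Dnmt1*-KO, 40 of 41 in *Dnmt3a/3b*-DKO and 36 of the 38 tested in *Dnmt*-null, where it was shared by 73.6, 77.1 and 68.5% of all entries tested in both. With single libraries left out, 6 calls (without E7.5 replicate 4) to 51 calls (without E6.5 replicate 1) were made in *Dnmt1*-KO, where leaving out E6.5 replicate 2 or 4, or E7.5 replicate 1, 2 or 3, gave 12, 13, 16, 10 and 18, and 0 to 4 in *Dnmt*-null. Whether the stage change differed between genotypes was not tested.

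Among the members, miR-322-3p had log2 fold changes of 2.0, 1.8 and 1.1 in the 3 mutants (adjusted p = 0.00156, 0.0117 and 0.297), and miR-335-5p of 1.94, 2.96 and 1.05 (adjusted p = 0.0113, 0.000994 and 0.411). The E7.5 libraries of *Dnmt*-null spread widely, with miR-335-5p at 775, 1528, 8703 and 3740 normalised CPM, against 1006 to 2127 at E6.5. In *Dnmt1*-KO, miR-10a-5p was already at 0, 54.5, 801 and 479 normalised CPM at E6.5 and at 221, 144.6, 502.9 and 754 at E7.5 (0.29, adjusted p = 0.937). In *Dnmt3a/3b*-DKO, the values were 17.5, 0, 20.5 and 26.2 and 738, 604, 730.4 and 1967 (5.86, adjusted p = 6.29e-05). In *Dnmt*-null, miR-10b-5p stood at 141.1, 121, 203 and 134 and 117, 39.4, 417 and 317 (0.59, adjusted p = 0.678), and miR-10a-5p was not tested. The stages of miR-10a-5p thus overlapped in *Dnmt1*-KO and not in *Dnmt3a/3b*-DKO.

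The miR-290-295 cluster had medians of -0.95, -0.39 and -0.39 in Exe of the *Dnmt1*-KO, of the *Dnmt3a/3b*-DKO and of the *Dnmt*-null, with 9 of 17, 6 of 18 and 0 of 17 entries called lower (2.73, 7.5 and 0.0% of all entries) and none higher. In *Dnmt1*-KO and *Dnmt3a/3b*-DKO, these calls include both miR-292a-5p and miR-292b-3p, which are the same reads. In the miR-322/miR-503 cluster, 5 of 10, 7 of 10 and 0 of 9 entries were higher (4.33, 11 and 0.279% of all entries), with medians of 1.89, 1.45 and 1.1. For miR-295-3p alone, the values were -0.81, -0.41 and -0.5.

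The choice of hairpin arm was compared with the ratio of 5p to 3p counts on the log2 scale (limma, with 0.5 added to each count), for 149 hairpins. None passed, with a smallest adjusted p of 0.131, and 16 (10.7%) had an unadjusted p under 0.05, of which 10 (6.71%) had a higher 5p share at E7.5 and 6 (4.03%) a lower one.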

How the data were processed

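Small RNA libraries of control mouse Exe (4 at E6.5 and 4 at E7.5) were compared, with control Epi and *Dnmt*-mutant Exe as further groups. Groups and replicate numbers followed the sample labels. The authors trimmed reads with fastp 0.20.1, mapped them with Bowtie 1.2.1.1 to the GRCm38 genome and then to mature miRNAs, and deposited raw whole-number counts per miRNA without normalization. Their own tests used DESeq2 1.30.1. Reads fitting several entries may be counted at each, so near-equal entries (counts within 1%, at least 40 counts) were also counted once.

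The stages were compared by quasi-likelihood fits (edgeR 4.0.16, R 4.3.3) to the counts, with TMM scaling and a filter on low counts (filterByExpr, minimum 10). A miRNA was called where the Benjamini-Hochberg adjusted p was under 0.05 and the absolute log2 fold change above 0.5. Normalised CPM and percent of all counts were computed from the deposited counts, with libraries of 65751 to 2069678 counts. The change in Exe was set against that in Epi by an interaction term, arm ratios were tested with limma 3.58.1 on hairpins with at least 10 counts, and shares by an exact permutation test. Alternatives were DESeq2 1.42.0, other scalings and filters, unadjusted p, a replicate block, thinning to equal depth, all Exe libraries in one fit, and leaving out each library; counting shared entries once, further thinning draws and shares over all entries were added after the data were seen. The fitting script was tested on simulated counts. The rule for named miRNAs took the 10 largest rises and falls among called entries without overlap (mean of at least 50 CPM), the 10 most abundant entries, up to 3 leading members of each list and up to 5 of the largest differences from Epi; other called entries and list members are named after their values were seen. The miRNA lists and members were chosen with earlier results of these data known. Mature sequences were from RefSeq, which held 1275 of the 1504 entries by name.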

Additional observations from a re-analysis of the deposited data

Results flagged for a closer look

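In 12 of the groups of 4 libraries examined, or 6.19% of them, 1 library stood far from the other 3 by Dixon's criterion. For independent groups, chance alone would give this in about 1 group in 20. These groups share their libraries, and some entries share reads. Most of the 12 were in E6.5 replicate 1 or E7.5 replicate 2, and whether chance accounts for them was not tested. In E6.5 replicate 1, miR-5108 was at 1373 normalised CPM (41.1 to 183 in the others), miR-191-5p was at 17199 normalised CPM (24998 to 26314 in the others), let-7a-5p was at 2052 normalised CPM (368 to 386 in the others), miR-6240 was at 809 normalised CPM (0 to 61.7 in the others), miR-5119 was at 2847 normalised CPM (60.4 to 165 in the others). In E7.5 replicate 2, miR-5108 was at 10.9 normalised CPM (0 in the others), miR-292a-5p was at 8475 normalised CPM (5203 to 5672 in the others), miR-292b-3p was at 8475 normalised CPM (5203 to 5672 in the others), miR-409-3p was at 20424 normalised CPM (23367 to 23950.4 in the others), miR-24-2-5p was at 4.85 normalised CPM (91.7 to 101.6 in the others). In E7.5 replicate 3, miR-127-3p was at 44003 normalised CPM (35383 to 36797 in the others). In E7.5 replicate 4, miR-494-3p was at 4086 normalised CPM (4981 to 5110.5 in the others). 

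The stage change of 26 named entries differed between control Exe and control Epi (interaction term, edgeR with adjusted p under 0.05). On the log2 scale, the change in Exe minus that in Epi was 6.99 for miR-142a-5p, 3.13 for miR-126a-3p, 3.13 for miR-126b-5p, 2.68 for miR-335-5p, 2.17 for miR-126a-5p, 1.83 for miR-294-3p, 1.82 for miR-292a-5p, 1.82 for miR-292b-3p, 1.14 for miR-295-3p, 0.87 for miR-293-3p, 0.99 for miR-291a-5p, 2.61 for miR-466e-3p, 1.17 for miR-302a-5p, 2.61 for miR-466c-3p, 2.61 for miR-466b-3p, 2.03 for miR-335-3p, 2.17 for miR-126b-3p. It was negative for miR-92a-3p (-0.73), miR-5099 (-1.44), miR-375-3p (-5.94), miR-199b-3p (-4.83), miR-125b-5p (-3.51), miR-455-3p (-2.07), miR-92b-3p (-1.48). The fitted differences of miR-669o-5p and miR-669h-5p were 8.17 and 6.85, but both had 0 counts in every E7.5 Epi library, so that these values depend on the prior count and are no bounds.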

How the results depend on the processing

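All 41 called entries kept their sign under every alternative they could be tested in (36 at equal depth, 38 with shared reads counted once). The medians of some lists near 0 changed sign. That of the mesenchymal list was -2.16, and at equal depth 2.53, the value of miR-143-3p, since miR-145a-3p and miR-199a-5p could not be tested there. Of the 41 entries, 15 (14 higher, 1 lower) were called in every alternative they could be tested in. The lower one was miR-5108, which could not be tested at equal depth. Against 41 calls, control Exe gave 88 by unadjusted p (49 higher, 39 lower), 63 by DESeq2 (37 higher, 26 lower) and 66 without the low-count filter (37 higher, 29 lower), so that the higher share went from 75.6% to 58.7% with DESeq2. Leaving out each library gave 17 to 66 calls. Unadjusted p gave 149 calls for the Exe and Epi difference, 106 for *Dnmt1*-KO, 136 for *Dnmt3a/3b*-DKO and 59 for *Dnmt*-null. Leaving out each library gave 30 to 84, 6 to 51, 60 to 81 and 0 to 4. The arm ratio gave 1 call with a pseudocount of 2, and 0 to 1 without single libraries. Over the total of all entries, the share of miR-302b-3p rose by 1.827 points (exact permutation p = 0.0286). The cause of these changes was not tested.

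Deviations of libraries with equal replicate numbers correlated at -0.023, -0.03, -0.025 and 0.224. Whether the replicate numbers pair the libraries was not tested beyond these values. With a replicate block, 24 entries were called in control Exe (18 higher, 6 lower) and 0 in *Dnmt*-null. The median over all entries, 0.03, was 0.24 with the block, 0.455 without the filter, 0.205 and 0.169 without E6.5 replicate 2 or 3, and 0.193 over all 32 Exe libraries. Recomputed list values moved in 53 cases and did not in 419. The depth of E6.5 limits low miRNAs, since 3 counts are 14.8 to 45.6 CPM there.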
